A study of Mus musculus with 2 samples.

Results

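The genes described here are 8 sensors and converters of extracellular nucleotides and related signals: P2ry12, P2ry13, P2ry6, Gpr34, Adora3, P2rx4, P2rx7 and Entpd1. They were taken by symbol from the 12 deposited cluster tables, each of which lists 32285 genes, and all 8 symbols were found in all 12 tables. The study sorted EYFP+ cells by flow cytometry from the dentate gyrus (DG) of adult mice 21 days after Tamoxifen and profiled them by droplet single-cell RNA-seq. The WT group carried NestinCreERT2;VEGFWT/WT;ROSA-STOP-EYFP and the iKD group NestinCreERT2;VEGFfloxed;ROSA-STOP-EYFP. Both groups therefore carried the Nestin promoter-driven CreERT2 and the EYFP reporter, and both received Tamoxifen. Each group was 1 library made from 5 pooled mice, so no replicate spread exists and no test of genotype was possible. The intervals given are exact 95% counting intervals, which cover counting error only and not the spread between mice.

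The WT library held 5543 cells with a median of 8051 UMIs (unique molecules counted per cell), and the iKD library held 5261 cells with a median of 7080 UMIs. Levels are means over cells of counts per 10,000 UMIs, recovered from the deposited values. They are 3' tag counts, not scaled to transcript length, so each gene is compared with itself across clusters and libraries. The 8 clusters that the study named qNSC1, qNSC2, aNSCs, NSPCs, IPC1, IPC2, eNB and NB, for quiescent and active neural stem cells through neuroblasts, held 10292 of the 10804 cells. In those 8 clusters all 10 genes of a microglia list were found in over 50% of cells, with a median of 99.8% of cells, while the median gene of a neural stem cell list was found in 0.36% of cells and that of a list of intermediate progenitors and neuroblasts in 0.049%. The deposited cluster names are therefore used below as labels only. Vegfa, the targeted gene, gave 74 UMIs in WT and 36 UMIs in iKD cells over the first 6 of these clusters, and 3' tags lie outside the floxed exon, so these counts do not check the deletion.

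Cells release ATP and other nucleotides when they are active, stressed or damaged, and neighbouring cells read them through 2 receptor families, the G protein-coupled P2Y receptors and the ATP-gated P2X channels. Membrane ectonucleotidases such as Entpd1 (CD39) strip phosphates from ATP and ADP, and the adenosine that finally forms acts on adenosine receptors. In the brain this system is best known in microglia, the resident macrophages, where the ADP receptor P2Y12 directs process movement toward injured cells.

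All 8 genes were detected in the cells of the 8 clusters, and 4 of them in more than 90% of cells. The ADP receptor P2ry12 had a UMI in 99.9% of cells, and its neighbour and relative P2ry13, a second ADP receptor, in 92.3%. The UDP receptor P2ry6, known for its part in phagocytosis, had a UMI in 81.9% of cells. Gpr34, a lysophosphatidylserine receptor related in sequence to the P2Y12 group, was found in 99.8% and the adenosine A3 receptor gene Adora3 in 45.1% of cells. The ATP-gated channels P2rx4 and P2rx7 were found in 41.9% and 67.8% of cells, and Entpd1 in 97.7%. A share depends on depth as well as level. With every cell thinned to 1500 UMIs, only P2ry12 (97.3%) and Gpr34 (90.3%) stayed above 90%, and Adora3 and P2rx4 were left at 11.8% and 10.8%.

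Within the 8 clusters the values of single cells ran over a wide range for the better detected genes. These ranges include counting error and pool clusters of different level, and the parts were not separated. The P2ry12 level of single cells ran from 16.7 at the 10th percentile to 44.9 at the 90th, with a median of 29.8. Gpr34 ran from 8.46 to 30.8 between the same percentiles and Entpd1 from 2.46 to 12.4. For Adora3 and P2rx4 the median cell was at 0. All 8 genes were seen together in 11.3% of WT cells and 8.505% of iKD cells, and the median cell of either library held 6 of them. These shares were not taken at equal depth, with medians of 8132 UMIs in WT and 7114 in iKD cells of the 8 clusters.

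P2ry12 and P2ry13 lie next to each other on mouse chromosome 3, on the minus strand (GRCm38, GENCODE M21). P2ry12 spans chr3:59216272-59262871 and P2ry13 chr3:59207892-59210882, with 5389 bases between them, and both sit inside Med12l on the opposite strand. P2rx7 (chr5:122643911-122691432) and P2rx4 (chr5:122707544-122729738) are a second pair, 16111 bases apart on the plus strand. P2ry6 lies at chr7:100937630-100974649, Gpr34 at chrX:13632089-13640858 inside Cask on the opposite strand, Adora3 at chr3:105870858-105908926 and Entpd1 at chr19:40612366-40741602. Adora3 shares 779 of its 3729 exon bases with Tmigd3 on the same strand, so its counts are uncertain. Tmigd3 itself had a level of 0.072 in the 8 clusters. Whether the counting used strand is not given in the sources used here, and reads of P2ry12, P2ry13 and Gpr34 could not be told apart from antisense reads of Med12l (level 2.27) and Cask (level 2.64) if it did not.

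Because P2ry12 and P2ry13 moved together across clusters, as described below, their promoter windows are shown, each with 250 bases before and 50 bases after the RefSeq start (GRCm38.p6), 5′ to 3′ on the gene's own strand. The P2ry12 window is chr3:59262936-59263235 and the P2ry13 window chr3:59210833-59211132, both on the minus strand. Capitals mark GAGGAA, a sequence bound by the myeloid factor PU.1, searched on both strands. Shorter forms of it were not searched.
P2ry12: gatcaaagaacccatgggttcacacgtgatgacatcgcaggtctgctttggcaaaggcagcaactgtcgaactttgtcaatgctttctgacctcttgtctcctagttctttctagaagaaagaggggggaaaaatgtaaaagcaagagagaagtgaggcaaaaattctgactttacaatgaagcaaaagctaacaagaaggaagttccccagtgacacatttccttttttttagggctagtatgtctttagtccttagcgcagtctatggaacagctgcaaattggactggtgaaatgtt
P2ry13: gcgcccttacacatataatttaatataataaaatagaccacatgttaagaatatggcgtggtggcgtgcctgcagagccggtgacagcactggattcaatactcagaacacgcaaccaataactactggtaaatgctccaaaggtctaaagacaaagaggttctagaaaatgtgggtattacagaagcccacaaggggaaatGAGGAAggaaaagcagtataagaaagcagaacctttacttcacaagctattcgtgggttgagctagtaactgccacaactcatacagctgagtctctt
The P2ry13 window held the motif 1 time, with its first base at position -48 from the start, and the P2ry12 window did not hold it. Windows were found for 6 of the 8 genes, with P2rx7 and Entpd1 having a pair each, and 5 of these 8 windows held GAGGAA, against 28.3% of 32851 promoter windows of the same length. The longer GAGGAAGT, which contains GAGGAA, was in 2 of the 8 windows (Adora3 and 1 of P2rx7) and in 3.20% of all windows. A match describes letters and not a bound site. P2ry6 and Gpr34 had no entry.

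The question of how the genes differ between the named states was read from the levels of each cluster, which are descriptions, since the clusters were built from these cells and their genes. P2ry12 had a level of 16.3 in qNSC1, 21.2 in qNSC2, 26.4 in aNSCs, 33.0 in NSPCs, 31.6 in IPC1, 29.7 in IPC2, 31.0 in eNB and 32.9 in NB. Its lowest 3 clusters stood apart from each other and from the rest in both libraries, while NSPCs and NB overlapped, as did IPC1 and eNB, and eNB and IPC2. In WT cells the P2ry12 level of qNSC1 was 15.7 and that of NSPCs 33.2, and in iKD cells these were 16.8 and 32.8. P2ry12 was the only one of the 8 genes whose highest cluster was at least 2 times its lowest (2.03-fold), against 13.9% of the 4585 genes whose highest level reached 0.5. In iKD cells alone, and with cells thinned to 4500 UMIs, no member reached 2-fold. The median fold of the 8 genes, 1.44, was near the 1.48 of all genes.

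**Figure D1:**
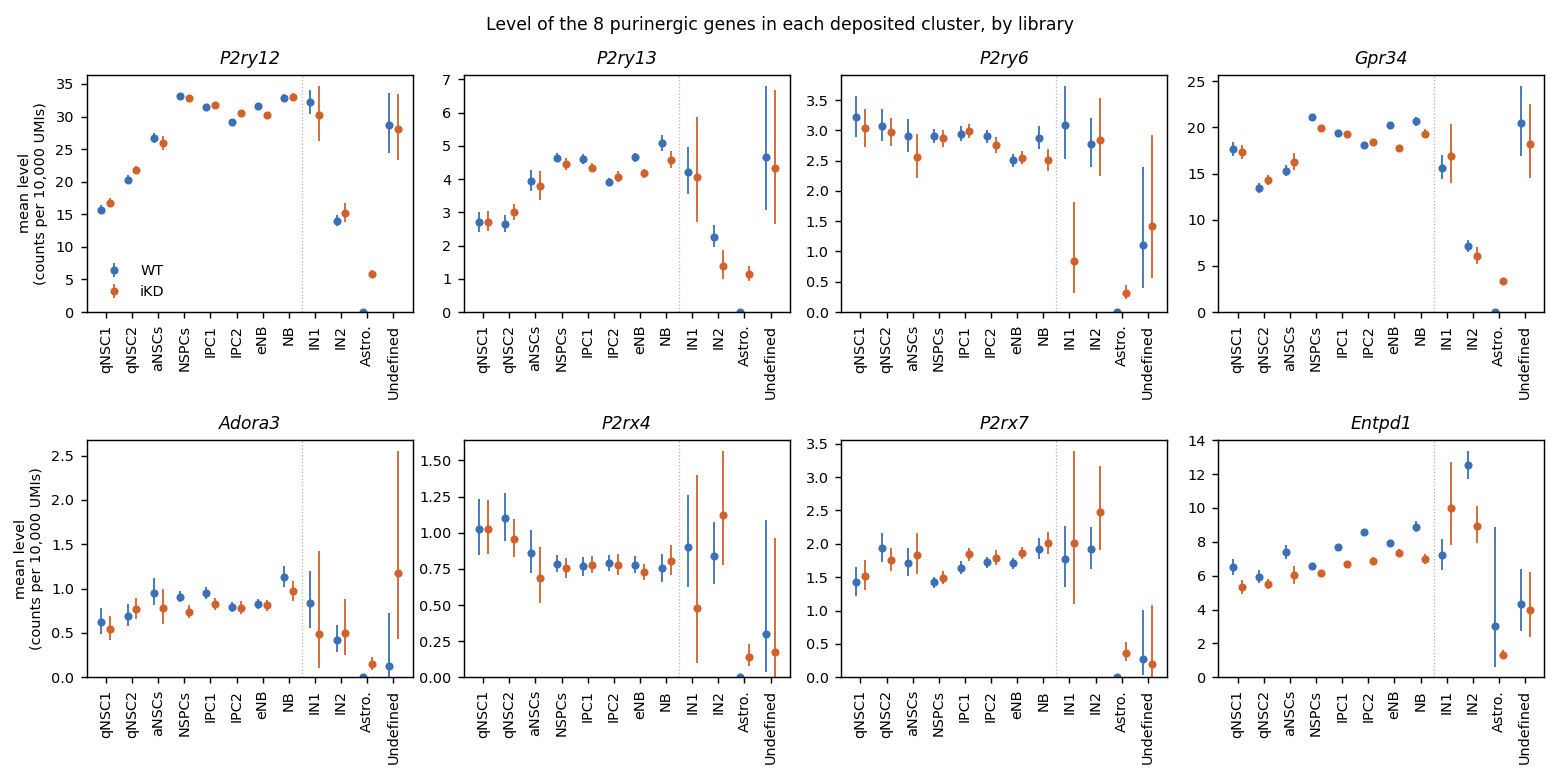
Mean level of each gene (vertical axis, counts per 10,000 UMIs, starting at 0) in the 12 deposited clusters (horizontal axis) for the WT and iKD libraries, with bars giving exact 95% Poisson counting intervals. The dotted line separates the 8 clusters from qNSC1 to NB from the smaller ones, where intervals are wide. P2ry12 rises from 16.3 in qNSC1 to 33.0 in NSPCs, and the point at 0 for WT cells of the Astrocytes cluster (Astro.) rests on 4 cells and has no bar.

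P2ry13 followed a similar order at a lower level, from 2.71 in qNSC1 and 2.87 in qNSC2 to 4.84 in NB. Its qNSC1 and qNSC2 levels overlapped between libraries, and both lay below those of the other 6 clusters. Gpr34 was lowest in qNSC2 at 13.95 and highest in NSPCs at 20.6, with qNSC1 at 17.5, a log2 difference from the 6 clusters aNSCs to NB of -0.16 in WT (-0.22 to -0.09) and -0.12 in iKD (-0.18 to -0.05). Adora3 ran from 0.581 in qNSC1 to 1.05 in NB. P2ry6 varied least, from 3.12 in qNSC1 to 2.53 in eNB. P2rx4 was highest in qNSC1 (1.03) and qNSC2 (1.01) and between 0.752 and 0.798 in the other 6 clusters. P2rx7 ranged only from 1.45 in NSPCs to 1.97 in NB and Entpd1 from 5.67 in qNSC2 to 7.91 in NB. For P2rx7 and Entpd1 most neighbours in the order overlapped between libraries.

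Set against the 6 clusters from aNSCs to NB, the qNSC1 cells were lower for both ADP receptors and higher for P2rx4 in both libraries. P2ry12 differed by -0.99 on the log2 scale in WT (-1.06 to -0.93) and by -0.90 in iKD (-0.97 to -0.84). P2ry13 differed by -0.73 in WT and -0.66 in iKD, Adora3 by -0.51 and -0.57, and Entpd1 by -0.25 and -0.35. P2rx4 was higher by 0.39 in WT (0.11 to 0.66) and 0.43 in iKD (0.15 to 0.69). Thus 4 of the 8 genes were lower by at least 0.25 in both libraries, where 22.5% of 3824 genes were, and 1 was higher, where 14% were.

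In qNSC2 the lower genes were P2ry12 (-0.63 in WT and -0.52 in iKD), P2ry13 (-0.76 and -0.51), Gpr34 (-0.55 and -0.39) and Entpd1 (-0.39 and -0.31). P2rx4 was again the higher one, by 0.49 in WT and 0.33 in iKD. These were 4 genes lower, against a background of 8.11% of genes, and 1 gene higher, against 7.17%. Adora3 in qNSC2 differed by -0.36 in WT and by -0.07 in iKD, so the libraries gave different sizes. Depth was alike in these groups, with medians of 8049.5 UMIs in qNSC1 and 7737 in qNSC2, and the summed level of the microglia list was 330 and 304, against 343 over the 8 clusters.

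The cluster named IN2, for immature neurons, had lower P2ry12, P2ry13, Gpr34 and Adora3 than the 8 clusters, and P2ry6 near their level. Its 194 WT and 94 iKD cells were shallow, with a median of 3102.5 UMIs. P2ry12 had a level of 13.98 in WT and 15.2 in iKD cells of IN2, against 30.5 and 30.3 in the 8 clusters. Gpr34 had a level of 7.12 and 6.10, against 19.4 and 18.5. P2ry13 had a level of 2.27 and 1.38 and Adora3 of 0.421 and 0.496. These 4 genes were lower by at least 0.25 on the log2 scale in both libraries, a share close to the 38.1% of all genes that were.

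Entpd1 was the 1 member higher in IN2, at 12.5 in WT against 7.67 in the 8 clusters (log2 difference 0.71, 0.61 to 0.80) and at 8.96 against 6.67 in iKD (0.43, 0.24 to 0.60). Since 34.9% of all genes were higher there, this is not particular to Entpd1. In the IN2 cells that reached 4500 UMIs, the difference was 0.56 over 54 WT cells and -0.11 over 19 iKD cells, so the iKD value did not hold in deeper cells. In the same deeper cells P2ry12, at -1.12 and -1.20, and Gpr34, at -1.65 and -1.87, stayed low. P2ry6 lay near 0 in both libraries (-0.03 and 0.03), with intervals from -0.31 to 0.35 at the widest. P2rx7 differed by 0.21 in WT and 0.48 in iKD, and P2rx4 by 0.07 and 0.51. In the 19 deeper iKD cells P2ry6 and P2rx7 stood at -0.99 and -1.02, values from few cells and without an interval. In the 54 deeper WT cells they stood at -0.19 and 0.13. In IN2 the microglia list had a summed level of 127 with 9 of 10 genes in over 50% of cells, and the granule neuron list one of 2.78 against 0.254 in the 8 clusters. The part of depth and of neuronal RNA in these differences was not tested.

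**Figure D2:**
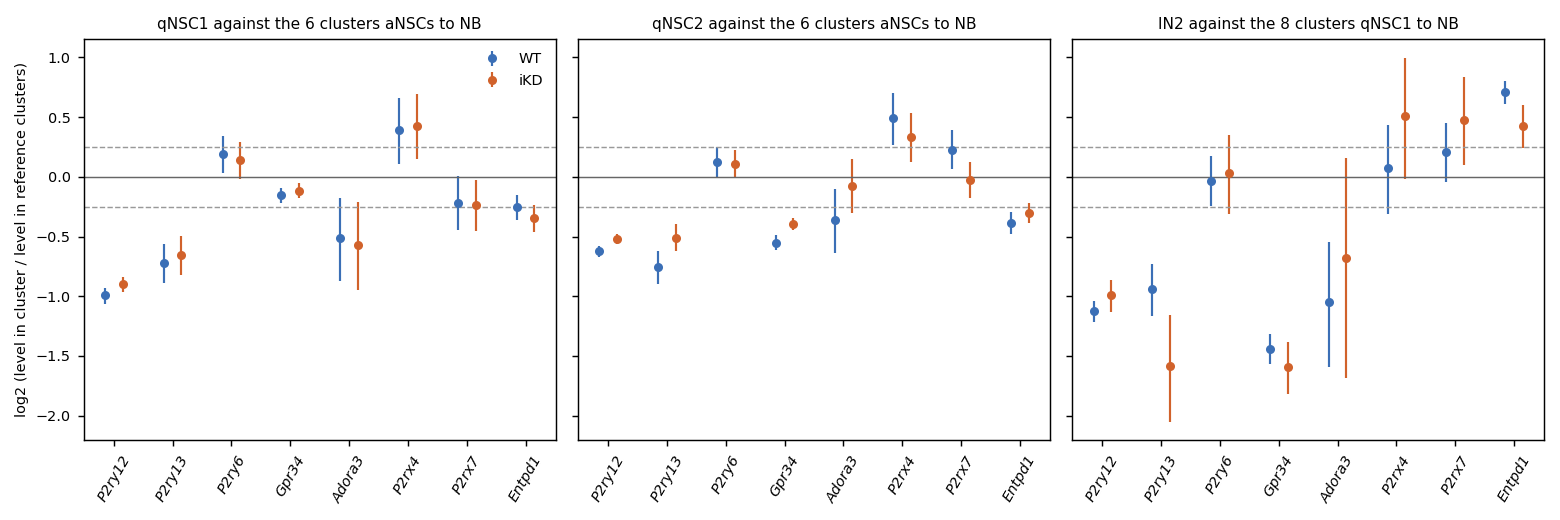
Log2 difference in level between 1 cluster and its reference clusters for each gene, by library, with 95% counting intervals; dashed lines mark 0.25 in either direction. P2ry12 sits at -0.99 and -0.90 in qNSC1 and P2rx4 above 0 in both qNSC panels, while in IN2 Gpr34 is lowest at -1.44 and -1.60 and Entpd1 is above 0.

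The 40 cells of the cluster named Undefined, which had a median of 2572.5 UMIs, held P2ry12, P2ry13 and Gpr34 at the level of the 8 clusters but few transcripts of the channels. P2ry12 had a level of 28.4 (25.2 to 31.9), P2ry13 of 4.51 (3.31 to 5.997) and Gpr34 of 19.4 (16.8 to 22.2), each with the level of the 8 clusters inside its interval. P2rx7 had only 3 UMIs, a level of 0.240 (0.050 to 0.702) against 1.71 in the 8 clusters. P2rx4 had also 3 UMIs, a level of 0.240 (0.049 to 0.701) against 0.791. P2ry6 was at 1.251 (0.666 to 2.14) against 2.81, and Entpd1 at 4.14 (2.998 to 5.58) against 7.18. With cells thinned to 1500 UMIs, P2rx7 was found in 5.0% of these cells and in 22.4% of the cells of the 8 clusters. The 9 genes of a dissociation response list had a summed level of 6.22 in these cells against 95.3, and the part of these differences between the cells was not tested. In the 50 cells of IN1 the levels were close to those of the 8 clusters, with the largest gap for Gpr34 (15.9 against 18.9) and P2ry12 at 31.8 against 30.4.

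The cluster named Astrocytes held 4 WT and 130 iKD cells. Its astrocyte list had a median of 2.24% of cells, while all 7 genes of a choroid plexus list were found in over 50% of its cells, so the label was not borne out by its markers. P2ry12 had a UMI in 43.3% of these cells and Gpr34 in 37.3%, with a median depth of 7722 UMIs, close to the 7622.5 of the 8 clusters. Entpd1 was found in 28.4%, P2ry13 in 24.6%, P2rx7 in 15.7%, P2ry6 in 14.9%, and Adora3 and P2rx4 in 8.21% each. All 8 shares were below those of the 8 clusters, at an iKD level between 11.4% and 27.5% of the level there. The 30 cells with a P2ry12 level of 10 or more, a limit chosen after the values were seen, held between 86.7% (P2rx4) and 100% (Adora3) of the UMIs of each of the other 7 genes, with 93.9% of P2ry13 and 87.2% of Gpr34. In the other 104 cells the Entpd1 level was 0.328 and that of Gpr34 0.643. The level of Ttr, the transthyretin gene of the choroid plexus, was 461 in the 30 cells and 1180 in the 104.

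Between the libraries, the comparison asks whether the genes differed between iKD and WT cells. The cells carried microglia markers and the deletion was not checked. The comparison therefore cannot show what loss of VEGF in the Nestin lineage does. Over qNSC1, qNSC2, aNSCs, NSPCs, IPC1 and IPC2, with 3752 WT and 3412 iKD cells, none of the 8 genes differed by 0.25 or more on the log2 scale in either direction. Among the 3863 genes that reached a level of 0.5 in either library, 1.86% were lower and 0.751% higher by that much. All 8 members passed that level minimum, so none was left out. The median log2 ratio of the 8 genes was -0.03, beside 0.01 for all genes, and 6 of the 8 were below 0.

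The receptors for nucleotides and lysophosphatidylserine, other than P2rx7, were near 0. For P2ry12 the WT level was 29.9 and the iKD level 30.0, with a ratio of 0.00 (-0.01 to 0.02) after log2 transformation. P2ry13 had a level of 4.197 and 4.096 (-0.03, -0.07 to 0.00) and P2ry6 of 2.93 and 2.89 (-0.02, -0.07 to 0.02). Gpr34 had a level of 18.9 and 18.6 (-0.02, -0.04 to -0.01). P2rx4 had a level of 0.811 and 0.796 (-0.03, -0.11 to 0.06). The remaining 3 genes had intervals further from 0. Adora3 had a level of 0.863 in WT and 0.774 in iKD (-0.16, -0.24 to -0.07), P2rx7 one of 1.61 and 1.71 (0.09, 0.03 to 0.15), and Entpd1 one of 7.45 and 6.40 (-0.22, -0.25 to -0.19).

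**Figure D3:**
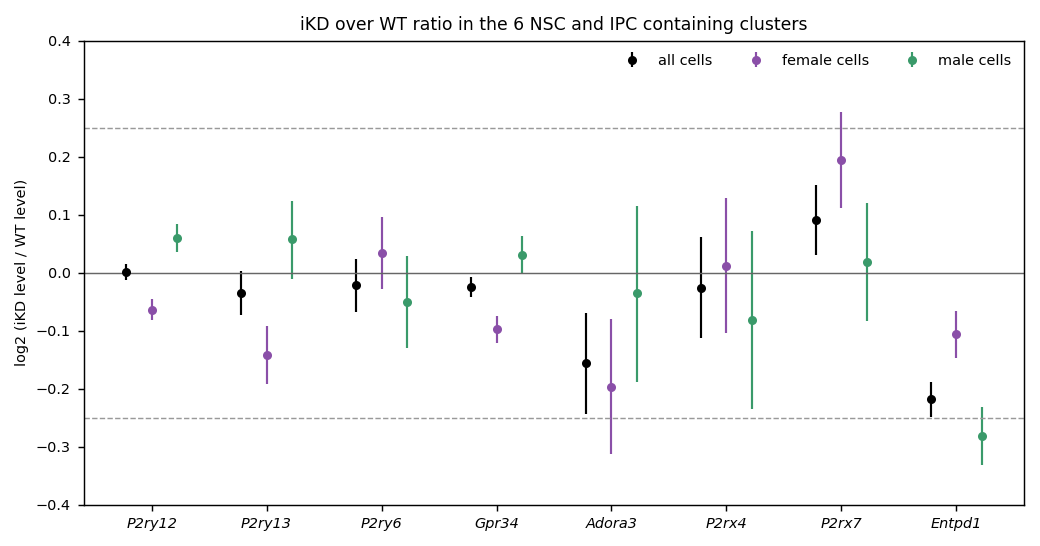
Log2 ratio of the iKD to the WT level over the 6 clusters from qNSC1 to IPC2 for each gene, in all cells and in cells assigned female or male, with 95% counting intervals; dashed lines mark 0.25 in either direction. The Entpd1 points lie at -0.22, -0.11 and -0.28, and the pooled P2ry12 points on opposite sides of 0 in female and male cells.

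Entpd1 was the member that differed most between the libraries, with 2.61% of the tested genes at a lower ratio. It was lower in iKD in each of the 8 clusters, from -0.09 in NSPCs (6.55 in WT and 6.14 in iKD) to -0.35 in NB (8.88 and 6.97). It was the only member with this pattern, against 3.83% of all genes lower in each cluster and 3.88% higher in each, and no member was higher in each. Its counting interval lay below 0 in 7 clusters, the exception being qNSC2 (-0.11, -0.23 to 0.01). IN2 gave -0.48 (12.5 and 8.96), and IN1, with only 9 iKD cells, gave 0.47 (7.21 and 10.0).

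The other members turned direction between clusters. P2ry12 was lower in iKD in 3 of 8 clusters, with ratios from -0.07 to 0.10, and P2ry13 in 5 of 8, from -0.16 to 0.18. Gpr34 ran from -0.19 to 0.09. Adora3 was lower in 7 of 8, from -0.30 to 0.15 in qNSC2, and P2rx7 was lower in 1 of 8, from -0.14 in qNSC2 to 0.17.

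The libraries also differed in the sexes of their cells, which the labels do not give and which were assigned from Xist and 4 Y-linked genes. Cells with an Xist UMI and no Y-linked UMI were 47.0% of WT and 65.4% of iKD cells in the 6 clusters. The clusters were split the same way, since 85.7% of IPC2 cells were male and 85.9% of IPC1 cells female. Within sexes Entpd1 was lower in iKD in both, at 6.81 in WT and 6.33 in iKD female cells (-0.11, -0.15 to -0.07) and at 8.06 and 6.63 in male cells (-0.28, -0.33 to -0.23). In male cells, where 4.76% of tested genes were lower and 2.98% higher by at least 0.25, it was thus past 0.25. It was the only member past that limit in either sex. Of the 16 combinations of cluster and sex, 15 were lower in iKD, 10 of them with an interval below 0. The exception was female qNSC2 cells, at 4.94 in WT and 5.55 in iKD, where the interval lay above 0 (0.17, lower end 0.000622). Of all genes, 0.802% were lower in at least 15, a limit taken from the Entpd1 count itself. All 16 combinations come from the same libraries, so this share is a description and no support.

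Pooled over the 6 clusters, P2ry12 had a level of 31.3 in WT and 29.9 in iKD female cells (-0.06, -0.08 to -0.04) and of 28.8 and 30.0 in male cells (0.06, 0.04 to 0.08). These pooled values mix clusters in unequal numbers, with 94 WT and 241 iKD female cells in qNSC2 and 829 and 656 in NSPCs. Within clusters the signs of the P2ry12 ratio did not separate the sexes. The ratio was above 0 in 4 of 6 clusters in female cells, from -0.04 to 0.15. In male cells it was above 0 in 4 of 6, from -0.57 in the 6 iKD cells of aNSCs to 0.32 in qNSC1. Over the 8 clusters, P2ry12 intervals above 0 were found only in male cells: qNSC1, qNSC2 (0.24), IPC2 (0.08), eNB (0.12) and NB (0.13). That of male eNB, with 36 WT cells, barely cleared 0, with a lower end of 4.35e-05. Intervals below 0 were those of female NSPCs (-0.04), female eNB (-0.07) and male aNSCs. Gpr34 gave pooled ratios of -0.10 in female and 0.03 in male cells. Within clusters it was below 0 in 3 of 6 in female cells and in 1 of 6, aNSCs, in male cells. P2ry13 gave -0.14 in female and 0.06 in male cells (-0.01 to 0.12), and within clusters it was below 0 in 5 of 6 in female cells and in 1 of 6 in male cells.

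Within the WT library, female and male cells were unequally spread over clusters, since IPC2 held 1067 male but 9 female cells. P2ry13 had a pooled level of 4.55 in WT female and 3.88 in WT male cells and was higher in female cells in 5 of the 6 clusters, with log2 differences from -0.02 in IPC2 to 0.68 in qNSC1. Entpd1 had a pooled level of 6.81 and 8.06 and was lower in WT female cells in 6 of 6 clusters, from -0.43 in qNSC2 to -0.01 in NSPCs. In eNB, outside these 6, the Entpd1 difference was 0.12 in WT. In iKD cells the pooled levels were 4.13 and 4.04 for P2ry13 and 6.33 and 6.63 for Entpd1. With 1 library of each genotype, the pooled mice and the genotype cannot be told apart.

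**Figure D4:**
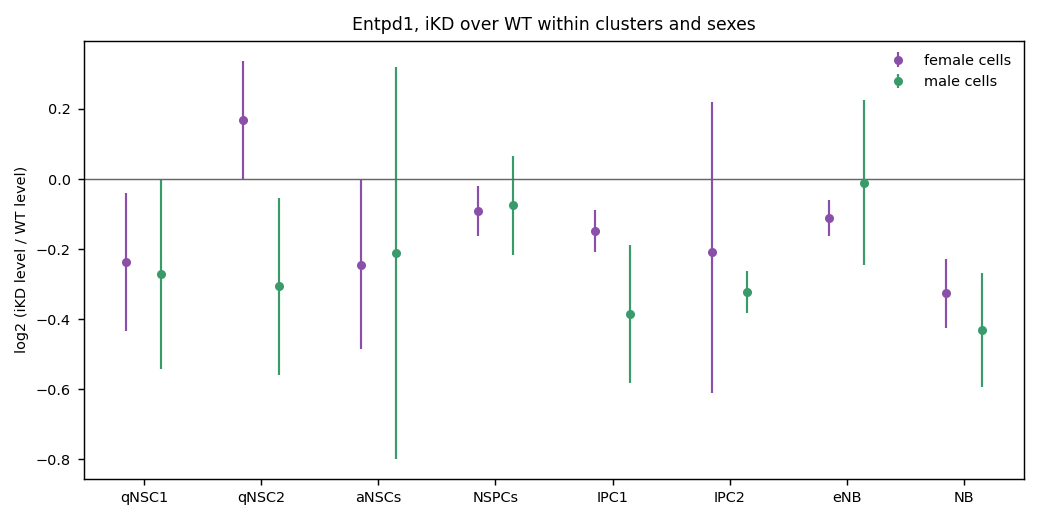
Log2 ratio of the iKD to the WT level of Entpd1 in each of the 8 clusters, in female and male cells, with 95% counting intervals. Points lie below 0 in 15 of 16 combinations, the exception being female cells of qNSC2 at 0.17, and the widest intervals belong to male aNSCs (6 iKD cells) and female IPC2 (9 WT cells).

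Transcripts of the choroid plexus moved with the libraries. Over the 8 clusters the choroid plexus list had a summed level of 0.139 in WT and 10.4 in iKD cells, with 1 of its 7 genes, Ttr, in over 50% of iKD cells and in 9.60% of WT cells, and none of the 7 at 0. The dissociation response list had a summed level of 91.6 in WT and 99.2 in iKD. The part of either in the Entpd1 difference was not tested. With the denominator taken without Ttr, sex-linked and mitochondrial genes, the Entpd1 ratio was -0.22.

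The rest of the system was read from lists of 54 genes, the 8 members included. Of these, 22 reached a level of 0.5 in either library and 28 were under 0.1. Among the 14 that were not members, 1 was lower by at least 0.25 and 1 higher. Lrrc8a, a subunit of volume-regulated anion channels that can pass ATP, had a level of 0.509 in WT and 0.416 in iKD (-0.29, -0.40 to -0.17). Nlrp3, the inflammasome sensor that acts downstream of P2X7 in macrophages, had a level of 0.864 and 1.04 (0.27, 0.19 to 0.35). The median of the 14 was 0.03.

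None of the 6 genes of P2Y12 signalling reached 0.25, and 3 of them had intervals above 0. The inhibitory G protein Gnai2 had a level of 6.59 in both libraries, and Rhoa one of 5.39 and 5.44. Kcnk13, the THIK-1 potassium channel of microglia, had a level of 1.60 in WT and 1.75 in iKD (0.13, 0.07 to 0.19). Pik3cg had 1.71 and 1.82 (0.09, 0.03 to 0.15), Gnb1 1.98 in both, and Gnai3 0.622 and 0.677 (0.12, 0.02 to 0.22). Among inflammasome genes Pycard had a level of 2.92 and 3.03, Il18 of 0.922 and 0.916 and Gsdmd of 0.645 and 0.663. The nucleoside transporters Slc29a3 and Slc29a1 had 3.05 and 3.08, and 0.683 and 0.652, and the phosphorylase Pnp 3.75 and 3.90.

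Members of the same families were otherwise scarce in these cells. Of 7 P2Y receptors 3 reached the level minimum, all members here, and the other 4 were under 0.1. Of 7 P2X genes 2 did, of 4 adenosine receptors 1, and of 9 ectonucleotidases 1, Entpd1. Nt5e (CD73), which completes the conversion to adenosine, had a UMI in 0.233% of cells of the 8 clusters. Enpp2, in the same list, had a level of 0.014 in WT and 0.305 in iKD (log2 ratio 3.73, 3.26 to 4.24), in the same direction as the choroid plexus list. Both are below the level minimum and are named after their values were seen.

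Genes whose log2 levels followed each member most closely over the 16 groups of 8 clusters and 2 libraries were listed by Pearson's r, as a description, since the groups share cells, depth and clustering. P2ry12 was followed most closely by Slc2a5 (r = 0.99), Pmepa1 (0.97) and Khdrbs3 (0.97). P2ry13 was followed by Cx3cr1 (0.97), Khdrbs3 (0.96) and P2ry12 (0.96). Slc2a5, a fructose transporter, had a level of 1.40 in qNSC1 and 3.80 in NB, and Cx3cr1, the fractalkine receptor, 31.3 and 43.6. Gpr34 was nearest to Fcrls (0.92), Scoc (0.91) and Gas6 (0.90), and Adora3 to Tsc22d4 (0.91), BC035044 (0.89) and Gna15 (0.88). P2rx7 was nearest to Pibf1 (0.94), Plcg2 (0.93) and Myo18a (0.93), and P2rx4 to Tns1 (0.90), Vmp1 (0.89) and BC028528 (0.88). Entpd1 was nearest to Foxk2 (0.90), Tmc7 (0.87) and Picalm (0.86). For P2ry6 the nearest genes were less close, with Spint1 at 0.77, Cmtm3 at 0.75 and Slc2a1 at 0.75.

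Between the members, P2ry12 and P2rx4 ran in opposite directions over the 16 groups (r = -0.85), and P2ry13 and P2rx4 likewise (-0.87). The neighbours P2rx4 and P2rx7 did not run together (r = -0.22). Within groups, cell by cell, the rank correlations were small for these pairs, with a median of 0.16 for P2ry12 and P2ry13 and -0.04 for P2ry12 and P2rx4, in sparse counts from which nothing is read.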

How the data were processed

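Single-cell RNA-seq was carried out on EYFP+ cells sorted from the mouse DG, 1 WT and 1 iKD library, each from 5 pooled mice. Per the labels, the submitters' processing notes name Cell Ranger 7.0.1 and Seurat 4.1.1. They also name a human genome build, whereas the gene symbols are those of mouse; the mouse build is not given in the sources used here. The deposited values were made by the authors as the natural log of 1 plus the counts per 10,000 UMIs, 1 table per cluster. UMI counts were recovered from them: 100% of values above 0 were whole within 0.01. The study's methods removed multiplets and damaged cells by limits on detected genes and mitochondrial reads, with a lower limit of 2000 genes that 496 deposited cells did not reach, and no doublet caller was run here. The methods and the deposited tables number qNSC1 and qNSC2 differently, and the names of the deposited tables are used. Of all cell barcodes, 9 occurred in both libraries.

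The level was the mean over cells of counts per 10,000 UMIs, and ratios were log2 after adding 0.01. A gene was counted as differing at 0.25 or more, with a level of at least 0.5. The genes named are the 8 members, listed genes of the system with a level of at least 0.5, and the 3 genes most like each member, beside 2 listed genes below that level, Nt5e and Enpp2, chosen after their values were seen. The members and lists were chosen with earlier results of these data known, and the contrasts of qNSC1, qNSC2 and IN2 with other clusters after their levels were seen. The limit of 15 of the 16 combinations of cluster and sex was taken from the Entpd1 count. Poisson and binomial intervals were exact at 95%. With simulated counts for the comparison of the 6 clusters, run on 32285 genes, the direction was right for 200 of 200 changed genes. Of these, 190 had the true ratio inside the interval. The simulated cells differed only by depth and counting error, so the spread between cells or mice was not checked. The planted changes were larger than the pooled ratios of the members, so the direction of such small ratios was not checked either. Cells were thinned to 4500 UMIs, which kept 10184 cells, or to 1500, which kept 10803. Positions are from GENCODE M21 and promoters from RefSeq. Python 3.11.15, numpy 2.4.6, scipy 1.17.1 and pandas 2.3.3 were used.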

Additional observations from a re-analysis of the deposited data

Results flagged for a closer look

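P2ry12 is listed because its iKD over WT ratio had opposite signs in the sexes, with counting intervals on either side of 0: -0.0635 on the log2 scale in female cells and 0.0603 in male cells of the 6 clusters pooled. Within clusters the signs did not separate the sexes, since the ratio was above 0 in 4 of 6 clusters in female and in 4 of 6 in male cells. Male aNSCs gave -0.57 and male IPC1 -0.00421. Over the 8 clusters, the 5 intervals above 0 were all in male cells, and that of male eNB barely cleared 0 (lower end 4.35e-05, 36 WT cells). The 3 intervals below 0 were those of female NSPCs, female eNB and male aNSCs. The difference between the sexes was not tested, since there was 1 library of each genotype.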

How the results depend on the processing

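No paired analysis was possible because each genotype has 1 library, and for the same reason none could be left out. Over 12 alternatives the Entpd1 ratio ran from -0.28 (male cells) to -0.11 (female cells) and that of Adora3 from -0.20 to -0.04, both below 0 in 12 of 12. That of P2rx7 ran from 0.02 to 0.19, above 0 in 12 of 12. These alternatives reuse cells of the same libraries, so their agreement in sign is no independent check. Within clusters P2rx7 was above 0 in 4 of 6 in female and 3 of 6 in male cells. Adora3 was below 0 in 4 of 6 in each sex, and Entpd1 in 5 of 6 in female and 6 of 6 in male cells. P2ry12 ran from -0.06 to 0.06 and was below 0 in 5 of 12. In male cells only 1 member, Entpd1, was lower by 0.25, against 4.76% of genes lower and 2.98% higher. The share of genes higher was 2.02% in female cells only, 1.37% when ratios were averaged over the 6 clusters and 2.16% with a level of at least 0.1. Without a filter on level 5.53% were lower and 5.25% higher, and with a pseudocount of 1 these were 0.544% and 0.0518%. The number of members with a highest cluster at least 2 times the lowest was 0 in iKD cells only, 0 after thinning and 3 in male cells. The number found in 90% of cells was 2 after thinning to 1500 UMIs, an alternative chosen after seeing the data, as was the limit on depth in IN2. The causes were not tested. P2ry13, Gpr34 and P2rx4 were below 0 in 10 of 12 alternatives and P2ry6 in 11, and no ratio that turned sign was past 0.25. Of the values for single members 136 stayed within the limits of the main value and 40 did not. Counting depth limits Adora3 and P2rx4 most, and the spread between mice could not be measured.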
